A study of Mus musculus with 11 samples.

Results

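Mouse embryonic fibroblasts (MEFs) lacking TREX1 were compared with wild-type MEFs by RNA-seq. The comparison used 3 libraries labelled Trex1-/- and 3 labelled wild type (WT), chosen by the genotype label, which were 6 of the 11 libraries of the series. MEFs are connective tissue cells grown out of whole embryos, here of embryonic day 13.5, and all 6 libraries were labelled as passage 2 with no treatment named. The labels' growth protocol mentions both primary and spontaneously immortalized MEFs without saying which library was which, and it names no background strain and no design of the null allele. The labels do not give whether the 3 libraries of a side stem from different embryos or from different dishes. Each p-value rests on a spread between libraries of a genotype that was estimated over all 11 libraries, and part of it may be technical.

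TREX1 is an exonuclease anchored at the endoplasmic reticulum that degrades DNA in the cytosol. When such DNA persists, the sensor cGAS makes a cyclic dinucleotide that activates STING, and type I interferon follows. Interferon acts on cells through a surface receptor, and many promoters of the genes it switches on hold the interferon-stimulated response element (ISRE). These genes act in virus defence or antigen presentation. Loss of TREX1 is known in mice and people for interferon-driven inflammation. The comparison addresses which genes differ between fibroblasts with and without the enzyme, and whether 3 libraries a side agree on each of them.

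Trex1 itself had 0 counts in every library, WT included. In the GRCm38 annotation 100% of its exonic bases lie inside exons of Atrip on the same strand, so its counts check no genotype label. Library totals were between 16073955 and 18457274 counts in WT and between 18127353 and 21765536 in Trex1-/-. The WT libraries all had a female pattern of Xist and Y-linked genes, as had Trex1-/- replicate 2, while Trex1-/- replicates 1 and 3 had a male pattern, so that embryo sex and genotype cannot be told apart in full. Trex1-/- replicate 2 therefore came from another embryo than replicates 1 and 3, while the sex pattern does not tell the WT libraries apart. Spearman correlations between libraries of a genotype were 0.974 to 0.990 in WT and 0.960 to 0.984 in Trex1-/-. Summed over 18 fibroblast markers, CPM (counts scaled to a common library size with TMM factors) ran from 63480 to 67570 in WT and from 61480 to 74290 in Trex1-/-. All 18 markers had counts. Endothelial, epithelial, skeletal muscle and adipocyte genes had summed CPM that overlapped between the groups. The summed CPM of neural markers (442 to 609 in WT, 396 to 431 in Trex1-/-) and mesothelial markers (at least 91.1 in WT, at most 90.1 in Trex1-/-) lay lower. Their list means, in which each gene weighs the same, overlapped between the groups. For neural markers the mean was 2.36 to 2.55 log2 CPM in WT and 2.08 to 2.68 in Trex1-/-. For mesothelial markers it was 2.46 to 2.74 in WT and 2.0 to 2.52 in Trex1-/-. Across the marker lists, the endothelial Cldn5 and Sox17, the epithelial Grhl2 and the muscle regulators Myf5 and Myf6 were at 0 in all 6 libraries.

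No gene passed the threshold of an adjusted p of 0.05 in edgeR's quasi-likelihood test (0 of 16990 genes tested, 0.0%), although several groups of genes lay apart in all 3 libraries a side. The smallest adjusted p was 0.0617, and 67 genes had an adjusted p under 0.1, 49 of them higher and 18 lower in Trex1-/-. Unadjusted p-values under 0.05 were reached by 1989 genes (11.7%) with higher and 1873 genes (11%) with lower values in Trex1-/-. DESeq2, run as an alternative, called 543 genes higher (3.2%) and 303 lower (1.78%). It gave no adjusted p for 2329 of the 16990 genes, which these percentages count as not called. Limma-voom called 1 gene, Tyrobp, lower. The count in edgeR turned on the design and on single libraries. With embryo sex as a term it was 380, of which 331 were higher and 49 lower in Trex1-/-. All WT libraries were female, and Trex1-/- replicate 2 was the only female library of its genotype. In every value given with a sex term, here and below, replicate 2 therefore weighs more than Trex1-/- replicates 1 and 3. Such values do not separate genotype from that library. The count was 2269 without WT replicate 2 and 105 without Trex1-/- replicate 1. It was 26 without Trex1-/- replicate 2 and 3 without Trex1-/- replicate 3, the last with Trem2 and Tyrobp among them. The fit also held 5 libraries of Trex1 point and frameshift mutants for its estimate of the spread, and without replicate 1 of one of these, Trex1D18N, it called 2 genes, Lyz2 and Tyrobp. Differences below are therefore given as values and not as calls, with an error for many but not all of the genes named.

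Agreement was counted directly as the number of genes whose 3 Trex1-/- libraries all lay above, or all below, the 3 WT libraries. There were 1898 such genes above (11.2%) and 1907 below (11.2%). These shares are the background set beside every list, but they varied with gene length. In the shortest quintile of genes by exonic length they were 4.75% above and 19.3% below. In the longest quintile they were 23.7% above and 3.42% below. Over all genes the median size of the log2 fold change was 0.29, and over the genes whose libraries did not overlap it was 0.52. Large differences were mostly upward. A log2 fold change of at least 1 was reached by 920 genes upward and 422 downward, of which 435 and 273 had libraries that did not overlap. At 3 or more there were 77 genes upward and 7 downward, with 39 and 3 not overlapping.

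Gene length moved with the difference and bears on several groups described here. In the shortest quintile of genes by exonic length (median 1233.5 bases) the median log2 fold change was -0.24, and in the longest quintile (median 9489.5 bases) it was 0.25. WT replicate 1 stood apart from the other libraries in this respect. Its median deviation from the mean of the 6 libraries was 0.31 log2 CPM in the shortest and -0.34 in the longest quintile, against -0.03 and 0.06 in WT replicate 2 and 0.10 and -0.10 in WT replicate 3. The 3 Trex1-/- libraries ran the other way from WT replicates 1 and 3, from between -0.12 and -0.11 in the shortest to between 0.08 and 0.18 in the longest quintile. A correction for exonic length and GC in every library, which was an alternative chosen after seeing the data, left 1555 genes above (9.15%) and 1889 below (11.1%) without overlap, and corrected values are given beside each printed fold change that the correction moved by over 1.5 times. Corrected counts for all lists are in the plot of agreement by list. The part of length in the results was not tested.

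**Figure D1:**
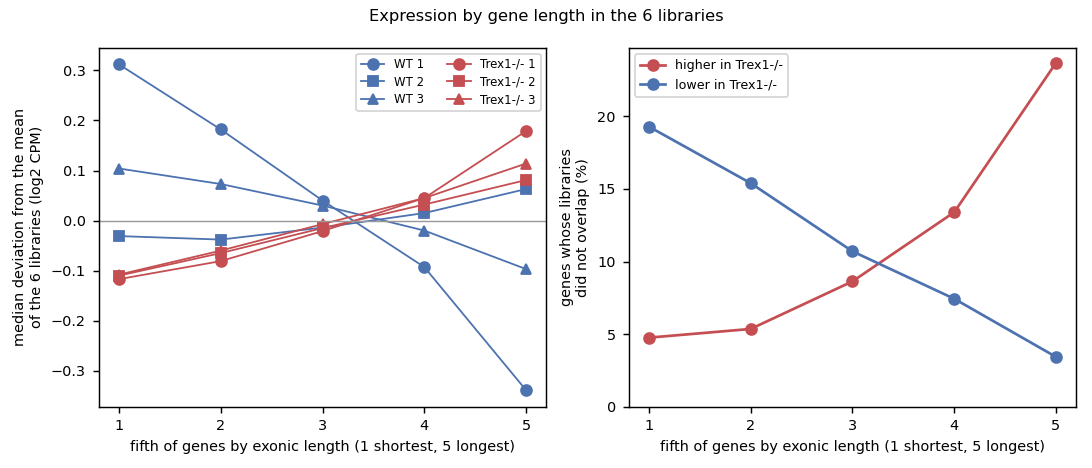
Left, the median deviation of each library from the mean of the 6 libraries (log2 CPM) in quintiles of genes by exonic length. Right, the percentage of genes in each quintile whose 3 Trex1-/- libraries lay all above (red) or all below (blue) the 3 WT libraries, from 4.75% above and 19.3% below in the shortest quintile to 23.7% and 3.42% in the longest. WT replicate 1 has the steepest line.

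Interferon-stimulated genes lay higher in Trex1-/-, by a median log2 fold change of 1.97 over 63 tested genes. In 44 of them the libraries did not overlap, all 44 higher, against 11.2% of all genes, and none of the 63 lay lower in this way. Many of their promoters carry the sequence that interferon-activated factors bind. Those of 3 genes described next, chosen among promoters that hold it, are shown with the core of the ISRE, GAAANNGAAA on either strand, in capitals. The sequences are RefSeq promoters of build GRCm38.p6, 300 bases long, from 250 bases before the start of the gene to 50 after it. They lie at chr12:26456403-26456702 on the minus strand (Rsad2), chr8:71537423-71537722 on the minus strand (Bst2, where a pair of cores overlap) and chr5:120777610-120777909 on the minus strand (Oas3).
Rsad2: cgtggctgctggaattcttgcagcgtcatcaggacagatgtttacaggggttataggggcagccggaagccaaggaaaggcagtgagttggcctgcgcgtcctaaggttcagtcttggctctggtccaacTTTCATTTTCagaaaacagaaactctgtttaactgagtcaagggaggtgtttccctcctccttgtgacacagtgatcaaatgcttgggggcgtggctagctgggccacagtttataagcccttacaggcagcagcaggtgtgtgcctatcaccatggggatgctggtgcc
Bst2: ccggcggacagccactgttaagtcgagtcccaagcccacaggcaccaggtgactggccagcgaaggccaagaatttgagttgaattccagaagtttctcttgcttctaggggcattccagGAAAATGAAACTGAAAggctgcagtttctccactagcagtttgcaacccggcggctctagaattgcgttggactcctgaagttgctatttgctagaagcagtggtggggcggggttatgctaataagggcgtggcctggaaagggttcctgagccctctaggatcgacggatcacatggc
Oas3: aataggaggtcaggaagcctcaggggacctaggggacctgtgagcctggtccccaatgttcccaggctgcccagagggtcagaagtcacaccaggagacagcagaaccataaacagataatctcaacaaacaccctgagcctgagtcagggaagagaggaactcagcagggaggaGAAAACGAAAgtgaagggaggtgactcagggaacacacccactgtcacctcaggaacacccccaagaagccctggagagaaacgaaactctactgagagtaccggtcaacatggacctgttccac
The core begins 120, 130 and 75 bases before the start in Rsad2, Bst2 and Oas3. It was found in 31 of the 60 promoters of interferon-stimulated genes in the table (51.7%), from 49 of the 63 genes, and in 3.44% of all 32851 promoters. Of the 19 promoters of MHC class I genes 5 held it (26.3%). A match is a description of the letters and shows no binding.

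Rsad2 encodes viperin, an antiviral enzyme that makes a chain-terminating nucleotide. It had 7.21, 5.81 and 5.59 CPM in WT replicates 1 to 3 and 22.2, 417 and 52.3 CPM in Trex1-/- replicates 1 to 3. All Trex1-/- libraries lay above all WT libraries, with replicate 2 far above the other two (log2 fold change 4.72 ± 0.98 SE, adjusted p = 0.122). Oas3 makes the second messenger that switches on RNase L. Its values were 2.88, 1.47 and 0.869 CPM in WT and 3.8, 69.6 and 10.3 CPM in Trex1-/-, in the same order among the knockout libraries (log2 fold change 4.0 ± 0.98, adjusted p = 0.126). Bst2, which tethers virions to the cell surface, had 299, 128 and 121 CPM in WT and 245, 1046 and 392 CPM in Trex1-/-. Its groups overlapped, because WT replicate 1 lay above Trex1-/- replicate 1, as they did for the secreted glycoprotein gene Lgals3bp, with 340 CPM in WT replicate 1 and 336 CPM in Trex1-/- replicate 1.

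The interferon genes with the tightest agreement were not those with the largest fold change. Rnf213, a large ubiquitin ligase, had 282, 372 and 236 CPM in WT and 803, 1769 and 883 CPM in Trex1-/- (log2 fold change 1.96 ± 0.29, adjusted p = 0.0806). Eif2ak2, the kinase PKR that halts translation on double-stranded RNA, had 52.8, 65.1 and 50.9 CPM in WT and 109, 223 and 130 CPM in Trex1-/- (1.45 ± 0.22, adjusted p = 0.0806). For Irgm2, an immunity-related GTPase, replicates 1 and 3 of Trex1-/- were level at 88.6 and 87.5 CPM, against 235 CPM in replicate 2 and 26.6 to 31.4 CPM in WT (2.23 ± 0.35, adjusted p = 0.0893). All 3 genes lay above WT in each knockout library. The largest fold changes came with wider errors, as in Mx1 (3.92 ± 0.89), Gbp5 (4.11 ± 0.99) and the chemokine gene Ccl5 (5.83 ± 1.5). Without Trex1-/- replicate 2 the log2 fold changes were 2.58 for Rsad2, 2.02 for Oas3, 2.05 for Mx1, 1.89 for Gbp5 and 2.53 for Ccl5. Paralogues of the H2-Q, Gvin and Tgtp families were also among the largest differences, but their near-identical copies make the counts uncertain.

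The size of the interferon difference followed the library. The mean over the list was 4.99, 4.42 and 4.11 log2 CPM in WT replicates 1 to 3, and 5.36, 7.47 and 5.97 log2 CPM in Trex1-/- replicates 1 to 3. Replicate 2 of Trex1-/- was the highest and replicate 1 the lowest of the knockouts, only a little above WT replicate 1. Without Trex1-/- replicate 2 the median log2 fold change of the list was 1.13, and that of MHC class I genes went from 1.65 to 0.85. After the length and GC correction the interferon median was 1.90 with 50 of 63 genes not overlapping and higher, against 1.97 and 44 before it.

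Genes of MHC class I antigen presentation, which display peptides on the cell surface, lay higher in 12 of 22 cases without overlap (median 1.65), and after the correction in 16. Nlrc5, the transactivator of these genes, had 10.8, 9.11 and 6.19 CPM in WT and 28.7, 124 and 40.7 CPM in Trex1-/- (log2 fold change 2.89 ± 0.51, adjusted p = 0.0921). Its light chain gene B2m had 704, 394 and 425 CPM in WT and 860, 1725 and 917 CPM in Trex1-/-, where WT replicate 1 came close to Trex1-/- replicate 1. The heavy chain genes H2-K1 and H2-D1 had log2 fold changes of 2.02 ± 0.52 and 1.85 ± 0.43. H2-K1 had 352, 162 and 160 CPM in WT and 409, 1740 and 588 CPM in Trex1-/-, and its log2 fold change without replicate 2 was 1.15. Nucleic acid sensors differed among themselves. Tlr3, a receptor for double-stranded RNA, had 6.06 to 6.75 CPM in WT and 11.1, 68.4 and 17.2 CPM in Trex1-/-, at a log2 fold change of 2.31, or 1.13 without replicate 2. Adar, which edits double-stranded RNA, had 68.9 to 76.5 CPM in WT and 102, 224 and 140 CPM in Trex1-/-. Of the 28 tested genes of DNA sensing and nucleic acid metabolism, 4 lay higher and 1 lower without overlap (14.3% and 3.57%), and 2 and 2 after the correction.

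**Figure D2:**
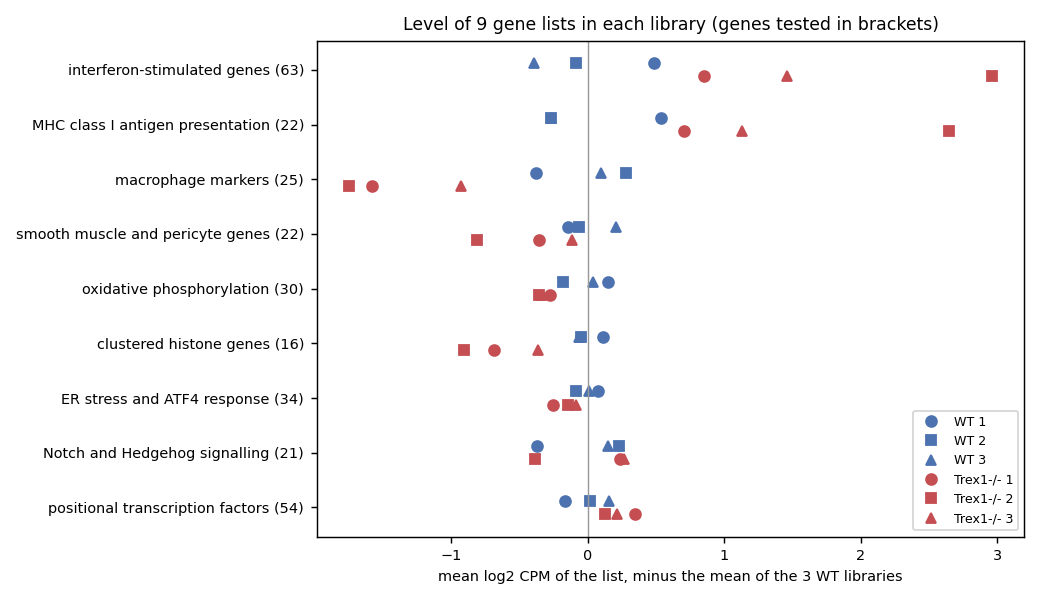
Mean log2 CPM of 9 gene lists in each of the 6 libraries, with the mean of the 3 WT libraries set to 0 and the number of genes tested in brackets. Trex1-/- replicate 2 (red square) lies farthest from WT for interferon-stimulated genes, MHC class I genes, macrophage markers, smooth muscle genes and histone genes, while positional transcription factors and Notch and Hedgehog genes differ by less than 1 unit in every library.

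Among genes that are in none of the lists of interferon-stimulated, antigen presentation and macrophage genes, the smallest adjusted p for a higher value were those of Agrn and Trps1, both at 0.0621. Agrn encodes agrin, a heparan sulfate proteoglycan of basement membranes that organises the neuromuscular junction. It had 313, 376 and 284 CPM in WT and 638, 1069 and 853 CPM in Trex1-/-, so that the lowest knockout library lay well above the highest WT library (log2 fold change 1.39 ± 0.19). Trps1, a GATA-type transcription factor of skeletal and hair follicle development, had 14.5, 21.9 and 20.4 CPM in WT and 59.1, 44.8 and 40.8 CPM in Trex1-/- (1.35 ± 0.18). Here replicate 1 of Trex1-/- was the highest, unlike in the interferon genes. After the length and GC correction the log2 fold change of Agrn was 1.28 and that of Trps1, a gene of 13380 exonic bases, was 0.96.

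The other 8 genes that the rule for small p-values picked had log2 fold changes between 0.73 and 2.22, each with an adjusted p between 0.0893 and 0.092 and with no overlap between the groups. Pcdh17, a protocadherin of cell adhesion, had 3.46, 6.61 and 5.38 CPM in WT and 18.4, 21.4 and 13.6 CPM in Trex1-/- (log2 fold change 1.79 ± 0.29). Msi2, an RNA-binding protein of progenitor cells, was among the most even, with 23.8, 33.5 and 31.1 CPM in WT and 49.7, 51.6 and 49.5 CPM in Trex1-/- (0.77 ± 0.13). Scube3, a secreted protein of the cell surface, had 8.25 to 14.1 CPM in WT and 22 to 32.9 CPM in Trex1-/- (1.20 ± 0.21). Prrg4, a membrane protein with a vitamin K-dependent domain, and Crispld1, a secreted cysteine-rich protein, stayed under 6 and 11 CPM in every library. Ubr4, an E3 ligase of the N-degron pathway with 17997 exonic bases, and Ascc3, a helicase that resolves stalled ribosomes and alkylated DNA, lay higher by 0.73 ± 0.12 and 1.08 ± 0.19. The correction took these last values to 0.46 and 0.67, and that of Msi2 to 0.45, a fall by more than 1.5 times in each.

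**Figure D3:**
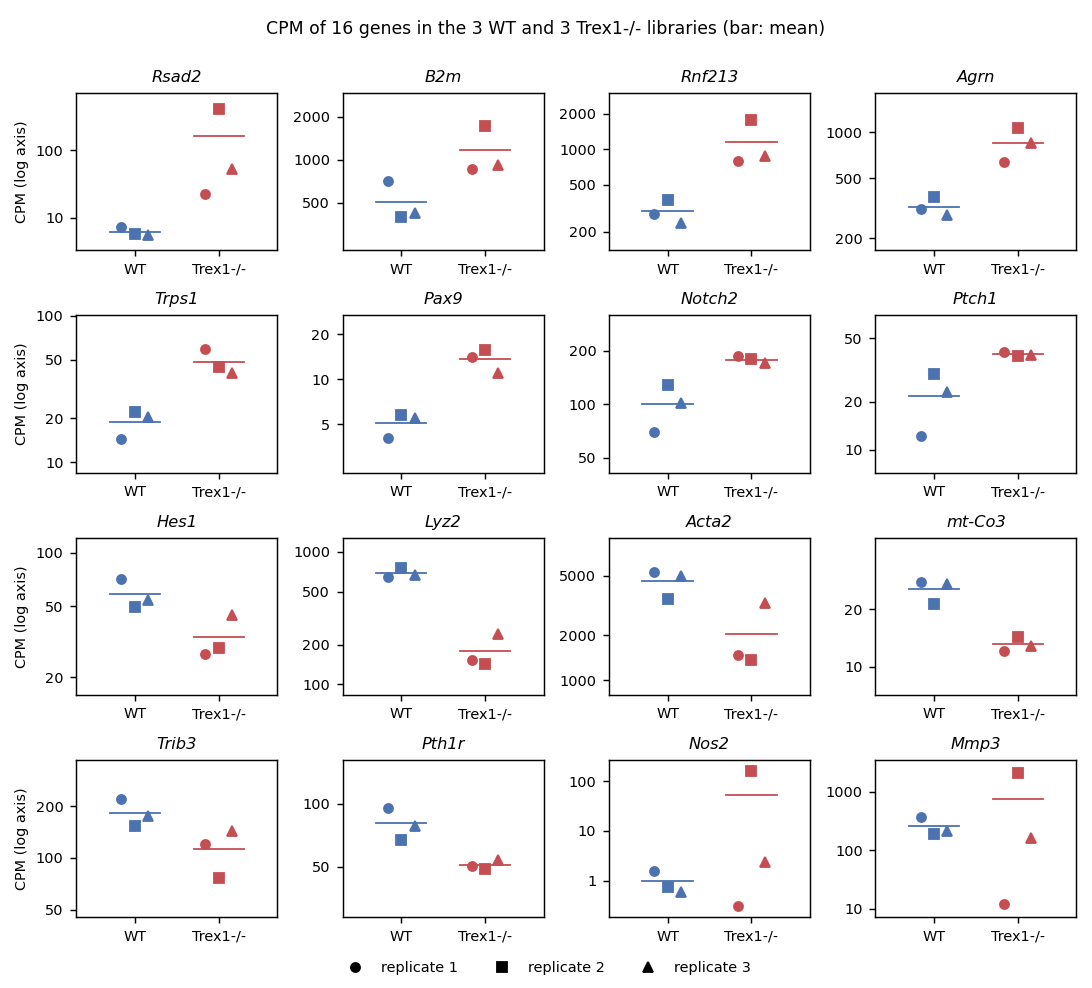
CPM of 16 genes in the 3 WT (blue) and 3 Trex1-/- (red) libraries on log axes that differ between panels, with symbols for the replicate number and a bar for the mean. The groups do not overlap from Rsad2 to Pth1r, while Nos2 and Mmp3 span from 0.313 to 158 CPM and from 12.3 to 2046 CPM within Trex1-/-.

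Factors that pattern the embryo were examined next, since MEFs keep the positional code of the tissue they came from. Of 54 positional transcription factors 8 lay higher (14.8%) and 2 lower (3.7%) without overlap, with a median log2 fold change of 0.34. Pax9, a paired-box factor of the pharyngeal arches, limbs and sclerotome, had 4.04, 5.75 and 5.49 CPM in WT and 14.1, 15.7 and 11 CPM in Trex1-/- (log2 fold change 1.42 ± 0.26, adjusted p = 0.092). Foxf1, a forkhead factor of lung and gut mesenchyme, had 3.46, 4.4 and 6.79 CPM in WT and 14.9, 17.2 and 10.1 CPM in Trex1-/- (1.52 ± 0.28, adjusted p = 0.092). Both were apart in all libraries and kept log2 fold changes of 1.32 and 1.69 after the length and GC correction. Hox genes as a group showed no direction, with 3 of 37 higher and 3 lower. Hoxd8 lay lower, at 42.5, 36.6 and 34.3 CPM in WT and 21.6, 22.5 and 27.3 CPM in Trex1-/- (-0.67 ± 0.13, adjusted p = 0.0921), as did its neighbour Hoxd9 (-0.59 ± 0.19), and Hoxa5 lay higher (0.70 ± 0.24). Corrected for length and GC, Hoxd9 was at -0.31 and the median of the positional factors at 0.26.

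Genes of the Notch and Hedgehog pathways were mixed. Notch receptors are cut after binding a ligand on the next cell and then switch on Hes and Hey repressors, while Hedgehog ligands relieve the inhibition that PTCH1 exerts. Of 21 tested genes 6 lay higher (28.6%) and 3 lower (14.3%) without overlap, against 11.2% and 11.2% of all genes, and the counts after the length and GC correction were 6 and 3 too. The median was 0.22, and 0.04 without WT replicate 1. The receptor gene Notch2 had 70.1, 128 and 102 CPM in WT and 186, 180 and 170 CPM in Trex1-/- (log2 fold change 0.84 ± 0.18, adjusted p = 0.113), and Notch1 had 30.7 to 58.2 CPM against 66.7 to 68.8 CPM (0.69 ± 0.19). The spread among the knockout libraries was narrow in both, and WT replicate 1 was the lowest. The target Hes1 had 71.4, 49.3 and 53.8 CPM in WT and 27, 29 and 44.4 CPM in Trex1-/- (-0.80 ± 0.21, adjusted p = 0.126). Hey1 (-1.19 ± 0.51) and Heyl (-1.18 ± 0.46), further repressors of the family, lay lower without overlap as well, at -0.72 and -0.76 without Trex1-/- replicate 2. Hey1, Heyl, Ptch1, Gli3, Hhip, Boc, the R-spondins, Cnn1, Actg2, Cox7a2, Sdha, H1f5, Dnajb9, Atf4, Asns and Cdkn1a were chosen for mention after their values were seen. On the Hedgehog side, Ptch1, the receptor and itself a target, had 12.2, 30 and 23.1 CPM in WT and 41, 38.6 and 39.3 CPM in Trex1-/- (0.86 ± 0.25, adjusted p = 0.131). Gli3, a transcription factor of the pathway (0.57 ± 0.18), Hhip, which binds the ligands (1.48 ± 0.44), and the coreceptor Boc (0.52 ± 0.21) lay higher without overlap. Without WT replicate 1, which was the lowest for all 4, the log2 fold changes of Ptch1, Gli3, Hhip and Boc were 0.58, 0.38, 1.24 and 0.33. Those of Hhip and Boc were 0.96 and 0.33 without Trex1-/- replicate 1, and that of Gli3 was 0.38 after the correction.

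WNT and BMP genes were mixed. Of 35 WNT pathway genes 7 lay higher (20%) and 3 lower (8.57%) without overlap, at a median of 0.35. After the length and GC correction 8 lay higher and 2 lower at a median of 0.27, and without WT replicate 1 the median was 0.20. The secreted modulator gene Dkk3 had 123, 134 and 144 CPM in WT and 230, 210 and 194 CPM in Trex1-/- (log2 fold change 0.66 ± 0.16, adjusted p = 0.125). Fzd8, a receptor, lay higher too (0.61 ± 0.18). Among R-spondins, secreted enhancers of WNT signalling, Rspo2 (1.07 ± 0.35) and Rspo3 (0.54 ± 0.20) lay above and Rspo1 (-0.86 ± 0.31) below WT, with Rspo2 at 0.70 without Trex1-/- replicate 1. The ligand gene Wnt4 had 21.2, 20.3 and 22.9 CPM in WT and 14.6, 6.47 and 10.7 CPM in Trex1-/- (-1.02 ± 0.26, adjusted p = 0.126). Of 35 genes of TGF-beta and BMP signalling 5 lay higher (14.3%) and 0 lower without overlap, at a median of 0.28. The correction left 4 higher at a median of 0.20, and the median was 0.10 without Trex1-/- replicate 2. Bmp2, a growth factor of bone and limb, had 1.04, 1.47 and 1.57 CPM in WT and 3.75, 11.2 and 2.88 CPM in Trex1-/- (2.12 ± 0.47, adjusted p = 0.121), and 1.29 without replicate 2. Bmp5 and the coreceptor gene Tgfbr3 had log2 fold changes of 1.42 ± 0.43 and 0.81 ± 0.23, and 46.7% of the exonic bases of Bmp5 lie inside exons of an annotated gene on the other strand.

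Channels, transporters and guidance receptors gave further members with 3 libraries apart. Of 34 ion channels and transporters 8 lay higher (23.5%) and 1 lower (2.94%), the same counts as after the length and GC correction, although the median went from 0.36 to 0.17. Clic5, a chloride channel protein that also binds the actin cortex, had 0.598 to 0.856 CPM in WT and 1.5 to 2.84 CPM in Trex1-/- (log2 fold change 1.67 ± 0.33, adjusted p = 0.0958). Gja1 encodes connexin 43, the main gap junction protein of fibroblasts, and had 107, 149 and 142 CPM in WT and 221, 247 and 183 CPM in Trex1-/- (0.71 ± 0.18). Corrected for length and GC, Gja1 was at 0.39. Slc7a2, an arginine transporter, had 40.5 to 77.6 CPM in WT and 128, 313 and 105 CPM in Trex1-/- (1.57 ± 0.38), or 0.92 without replicate 2. Unc5c, a netrin receptor of axon guidance, lay at 49, 20.2 and 25.6 CPM in Trex1-/- against 5.83 to 13.9 CPM in WT (1.6 ± 0.36). Ltbp1, which stores latent TGF-beta in the matrix, and Ptpn14, a phosphatase that restrains YAP, were even in the knockouts, with 199 to 220 CPM and 158 to 180 CPM, above 78.8 to 128 CPM and 59.8 to 105 CPM in WT.

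Of 17 tested cartilage and bone markers 3 lay higher (17.6%) and 0 lower without overlap, led by Sox5, a cartilage transcription factor (log2 fold change 1.33 ± 0.30), and Col9a1, a cartilage collagen (1.69 ± 0.43). The correction left 4 higher, and with embryo sex as a term Col9a1 was at 1.0. The summed CPM of the list was 904 to 1022 in WT and 1077 to 1706 in Trex1-/-, highest in replicate 1. The mean over the list, in which each gene weighs the same, overlapped between the groups. It was 2.44 to 2.79 log2 CPM in WT and 2.6 to 3.57 log2 CPM in Trex1-/-. The median log2 fold change was 0.43, or 0.25 with embryo sex as a term. In Col9a1 the lowest Trex1-/- library had 3.63 CPM and the highest WT library 3.42 CPM, a narrow gap. Among 30 p53 targets 7 lay higher (23.3%) and 2 lower (6.67%), and after the correction 5 and 1. The death receptor gene Eda2r (0.97 ± 0.25) and the translesion polymerase gene Polk (0.66 ± 0.17) led the list, while Cdkn1a, the inhibitor p21, overlapped between the groups, with 173 to 190 CPM in WT and 164, 354 and 201 CPM in Trex1-/-.

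Macrophage markers lay lower in Trex1-/-, with 16 of 25 not overlapping, all lower, and a median log2 fold change of -1.38. Their summed CPM was 953 to 1243 in WT and 289, 328 and 459 in Trex1-/- replicates 1 to 3, and no marker was at 0 in all 6 libraries. In bulk RNA, fewer cells of a type and less RNA per cell cannot be told apart. Lyz2, a lysozyme of myeloid cells, had 645, 754 and 674 CPM in WT and 153, 142 and 240 CPM in Trex1-/- (log2 fold change -1.95 ± 0.29, adjusted p = 0.0806). Tyrobp, a signalling adaptor of myeloid receptors, had 9.8, 13.2 and 11.1 CPM in WT and 2.86, 2.42 and 3.72 CPM in Trex1-/- (-1.92 ± 0.23, adjusted p = 0.0617). Both groups were tight and far apart in these 2 genes. The receptor gene Trem2 (-1.87 ± 0.32), the protease gene Ctss (-1.38 ± 0.23), the membrane protein gene Ms4a7 (-1.6 ± 0.37) and Spi1, which encodes the myeloid master factor PU.1 (-1.59 ± 0.39), followed. Of 10 genes picked for the largest downward fold change among genes without overlap whose mean reached 5 CPM in WT or Trex1-/-, the 5 outside the marker list are also known from blood cells or macrophages. They were the C-type lectin gene Clec4n, the myosin gene Myo1f, the GTPase gene Rac2, the exchange factor gene Vav1 and the scavenger receptor gene Stab1, with log2 fold changes from -1.67 to -1.6. With embryo sex as a term Clec4n, Myo1f and Rac2 were at -0.75, -0.94 and -1.02. C5ar1, the receptor of the complement fragment C5a (-1.48 ± 0.28), the surface receptor gene Cd84 (-1.48 ± 0.29) and Alox5ap, needed for leukotriene synthesis (-1.59 ± 0.32), lay in the same range.

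The median of the macrophage list was -1.33 without Trex1-/- replicate 2 and -1.23 after the length and GC correction, with 17 of 25 then not overlapping. PU.1 binds a purine-rich site, and GAGGAAGT, on either strand, was found in 3 of 22 promoters of macrophage markers (13.6%) and in 3.2% of all promoters. The promoter of Ctss, at chr3:95526536-95526835 on the plus strand, is shown as one that holds it, in capitals and across the annotated start. It is again a RefSeq sequence of GRCm38.p6. This promoter also holds a core of the ISRE, gaaaccgaaa, left in lower case. The ISRE core was found in 2 of the 22 promoters of macrophage markers (9.09%). The PU.1 site was found in 5 of the 60 promoters of interferon-stimulated genes (8.33%), so neither motif was confined to its own list.
Ctss: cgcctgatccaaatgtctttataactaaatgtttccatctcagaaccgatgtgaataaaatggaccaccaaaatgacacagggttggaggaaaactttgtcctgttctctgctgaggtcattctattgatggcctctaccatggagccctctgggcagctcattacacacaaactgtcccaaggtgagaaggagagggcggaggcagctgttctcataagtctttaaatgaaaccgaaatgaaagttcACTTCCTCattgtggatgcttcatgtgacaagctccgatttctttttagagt

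Contractile genes lay lower. Of 22 smooth muscle and pericyte genes 6 lay lower (27.3%) and 0 higher without overlap, with a median log2 fold change of -0.42, and the correction left 6 lower. Their summed CPM was 8072 to 10650 in WT and 5118, 4637 and 7821 in Trex1-/-, and no marker of the list was at 0 throughout. The mean over the list, in which each gene weighs the same, overlapped between the groups. It was 6.19, 6.27 and 6.54 log2 CPM in WT and 5.98, 5.52 and 6.22 log2 CPM in Trex1-/-. Acta2, smooth muscle actin, had 5315, 3503 and 5021 CPM in WT and 1475, 1353 and 3274 CPM in Trex1-/- (-1.18 ± 0.42, adjusted p = 0.156). Replicate 3 of Trex1-/- was close to WT replicate 2 and the other two were far below. Myl9, the regulatory myosin light chain, had 540, 374 and 536 CPM in WT and 224, 171 and 317 CPM in Trex1-/- (-1.03 ± 0.28, adjusted p = 0.127), and -0.68 after the correction. The calponin gene Cnn1 (-1.10 ± 0.48) and the enteric actin gene Actg2 (-1.04 ± 0.47) lay lower as well, likewise least so in replicate 3. With embryo sex as a term Acta2, Myl9, Cnn1 and Actg2 were at -1.97, -1.58, -1.96 and -1.99. Tagln was lower too (-1.48 ± 0.43), but 67.9% of its exonic bases lie inside exons of other genes on the opposite strand, so its counts are uncertain. Myosin heavy chain Myh11 and the kinase gene Mylk, and the pericyte genes Cspg4 and Rgs5, also named after their values were seen, overlapped between the groups. Serum response factor, which drives contractile genes, binds the CArG box. That box occurred in 2 of 19 promoters of the list (10.5%) and in 1.63% of all promoters, and the promoter of Myl9 at chr2:156775214-156775513 on the plus strand (RefSeq, GRCm38.p6) is printed with the box in capitals, beginning 161 bases before the start.
Myl9: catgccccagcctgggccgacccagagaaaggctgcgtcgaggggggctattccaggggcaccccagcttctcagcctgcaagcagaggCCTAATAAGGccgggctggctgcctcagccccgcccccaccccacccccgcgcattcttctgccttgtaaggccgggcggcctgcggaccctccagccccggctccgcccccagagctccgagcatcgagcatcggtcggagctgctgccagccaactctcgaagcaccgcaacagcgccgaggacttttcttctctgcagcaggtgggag

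Among fibroblast markers, with a median of 0.06 over 18 genes, 4 lay lower (22.2%) and 1 higher without overlap. Thy1, a surface glycoprotein of fibroblasts, had 834, 592 and 596 CPM in WT and 198, 408 and 409 CPM in Trex1-/- (log2 fold change -0.99 ± 0.31, adjusted p = 0.139), and vimentin Vim had 5459, 3145 and 3755 CPM against 2474, 2545 and 2937 CPM (-0.64 ± 0.19). Abundant genes with the largest downward difference further included the actin-sequestering Tmsb4x (-0.87 ± 0.28) and the isomerase Ppia (-0.77 ± 0.20). Ppia and Vim were highest in WT replicate 1, and without it their log2 fold changes were -0.52 and -0.38. The fibrillar and network collagens differed little, with 1 of 23 higher and 0 lower and a median of 0.06.

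Genes of oxidative phosphorylation lay slightly lower in Trex1-/- and with close agreement, 19 of 30 without overlap and none higher, at a median log2 fold change of -0.38. These genes encode the respiratory chain and ATP synthase, in part on the mitochondrial genome. The mitochondrial gene mt-Co3 had 27.8, 21.3 and 27 CPM in WT and 12.2, 14.3 and 12.9 CPM in Trex1-/- (-0.95 ± 0.17, adjusted p = 0.092). For mt-Nd4 the values were 1028, 740 and 975 CPM against 666, 550 and 641 CPM (-0.56 ± 0.14), and for mt-Nd1 they were 1748, 1348 and 1664 CPM against 1196, 1114 and 1189 CPM (-0.44 ± 0.13). These 3 genes, the members of the list with the smallest p, were lower in every knockout library. The share of counts from all mitochondrial genes overlapped between the groups, at 1.16%, 1.15% and 1.27% in WT and 1.22%, 0.932% and 1.05% in Trex1-/- replicates 1 to 3. Among nuclear members, the small complex IV subunit gene Cox7a2 was at -0.79 ± 0.23, which became -0.44 after the length and GC correction and -0.47 without WT replicate 1, while Sdha, a large subunit of complex II, did not differ beyond its error (-0.03 ± 0.10). After the length and GC correction the list median was -0.27 with 14 of 30 lower, and without WT replicate 1 it was -0.25 before the correction.

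Histone genes behaved likewise, with 10 of 16 tested lower (62.5%) and 1 higher (6.25%), H1f5, without overlap, at a median of -0.69. Most of the list are short, intronless genes read out in S phase whose mRNAs usually lack a poly(A) tail. H2bc4 had 56.8, 36.9 and 47.3 CPM in WT and 27.6, 21.6 and 36.3 CPM in Trex1-/- (log2 fold change -0.72 ± 0.20, adjusted p = 0.131), H1f3 lay at -1.04 ± 0.31, and H2bc8, below 1.5 CPM throughout, at -1.58 ± 0.42. The correction took the median to -0.44 and the number of genes lower to 6, and H2bc4 to -0.32. Genes of DNA replication and cell division had a median of -0.27 with 4 of 40 lower (10.0%) and 0 higher, a share near that of all genes. Ccnb2 and Cdc20, which drive and end mitosis, led them at -0.72 ± 0.30 and -0.68 ± 0.29, both lowest in Trex1-/- replicate 1. Without that library they were at -0.48 and -0.41, and Cdc20 was at -0.43 after the correction.

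Genes of the amino acid and endoplasmic reticulum stress responses lay lower in 12 of 34 cases (35.3%) and higher in 1 (2.94%), Dnajb9, without overlap, although the median was only -0.19. Trib3, a pseudokinase target of the transcription factor ATF4, had 220, 154 and 175 CPM in WT and 120, 76.8 and 144 CPM in Trex1-/- (log2 fold change -0.69 ± 0.22, adjusted p = 0.138). The amino acid transporter gene Slc3a2 (-0.51 ± 0.17), Atf4 itself (-0.48 ± 0.16) and the asparagine synthetase gene Asns (-0.46 ± 0.19) lay lower in all libraries too. Each of these 3 was highest in WT replicate 1, without which they were at -0.33, -0.32 and -0.31. After the correction 11 lay lower and 2 higher at a median of -0.13, with Trib3 at -0.43 and Atf4 at -0.26.

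**Figure D4:**
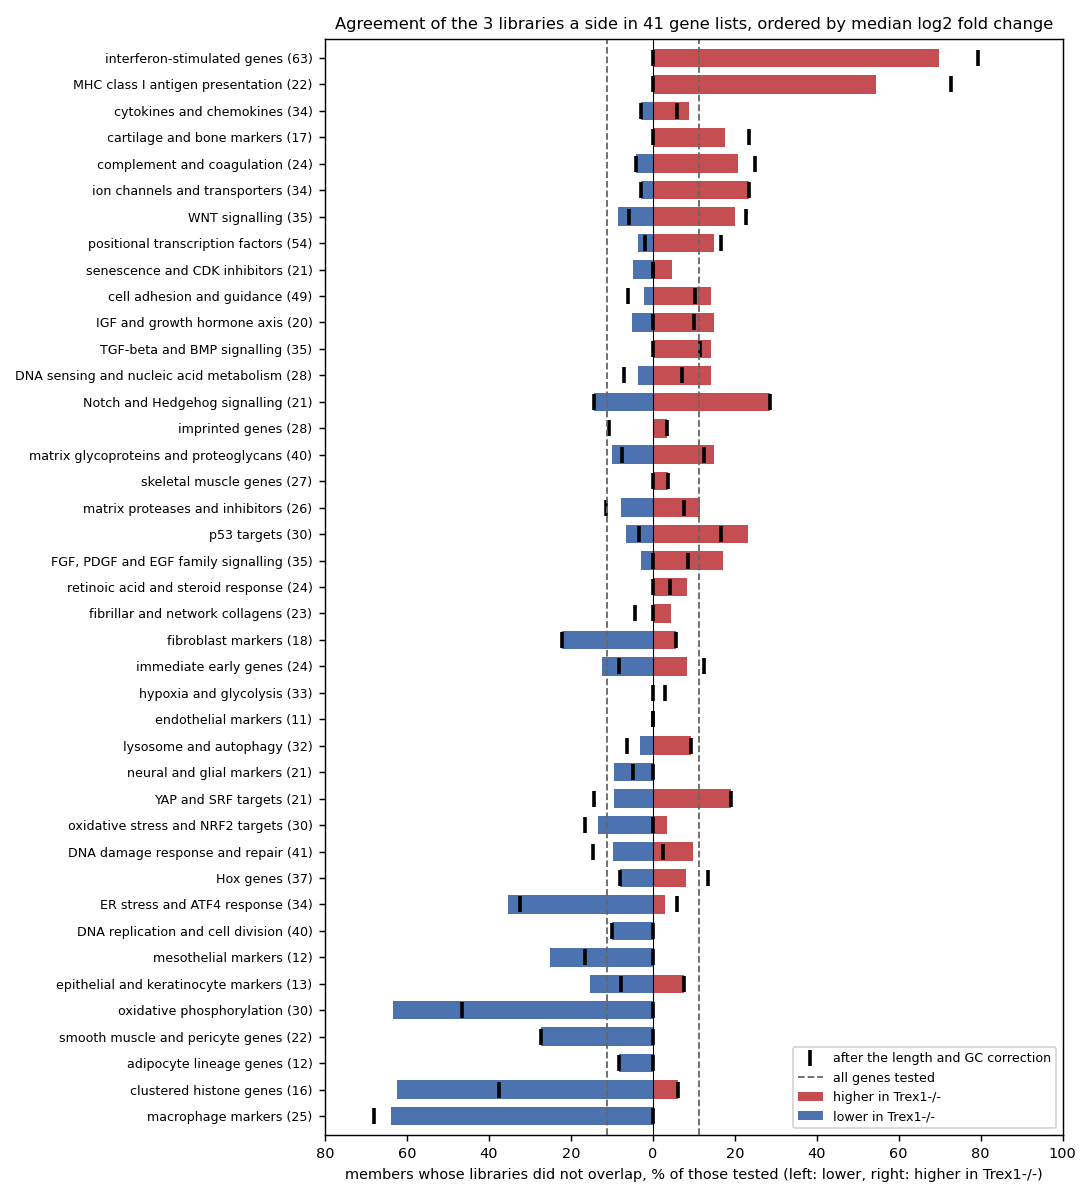
Percentage of tested members of 41 gene lists whose 3 Trex1-/- libraries lay all above (red, right) or all below (blue, left) the 3 WT libraries, ordered by median log2 fold change, with black ticks for the values after the length and GC correction and dashed lines at 11.2% for all genes tested. Interferon-stimulated genes (44 of 63) stand far to the right, and macrophage markers, histone genes and genes of oxidative phosphorylation far to the left.

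**Figure D5:**
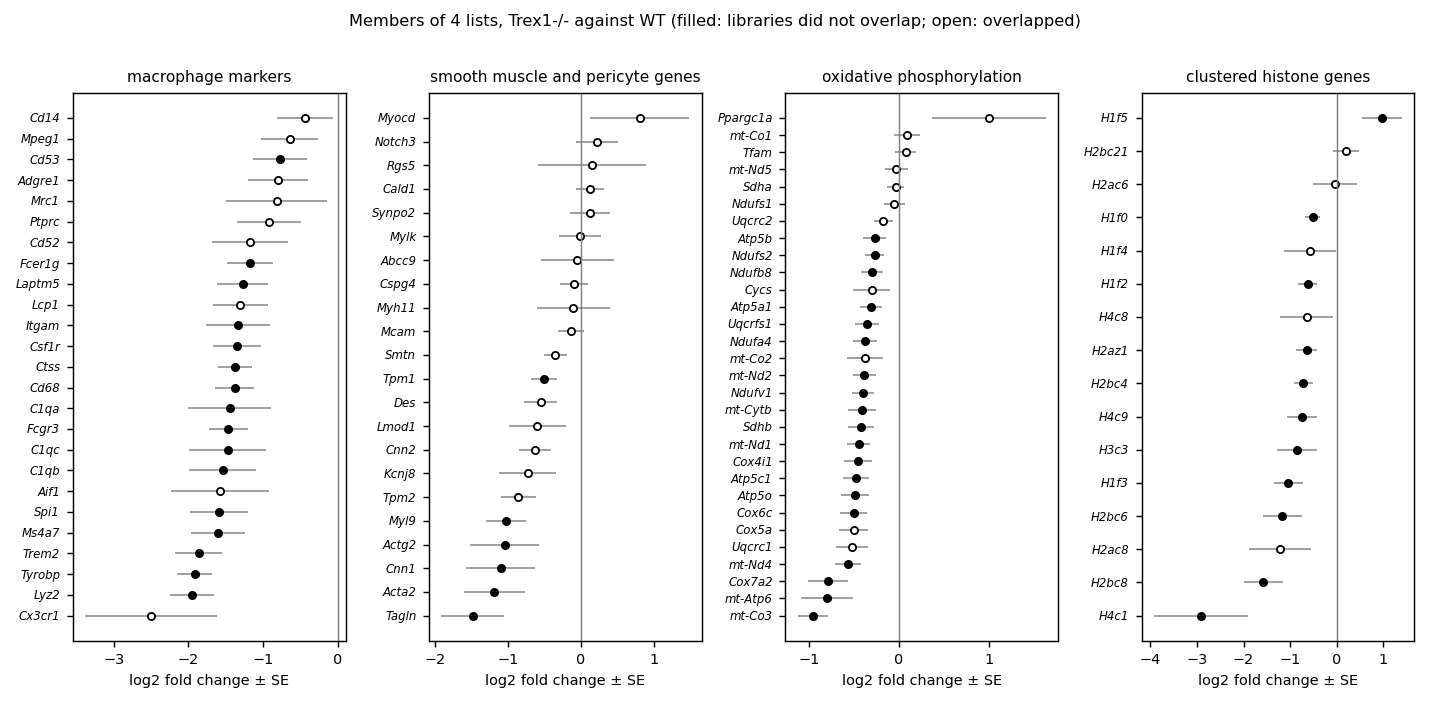
Log2 fold change of Trex1-/- against WT with its SE for every tested member of 4 lists. Filled points had libraries that did not overlap, which were 16 of 25 macrophage markers, 6 of 22 smooth muscle genes, 19 of 30 genes of oxidative phosphorylation and 11 of 16 histone genes.

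Single genes outside these groups lay lower without overlap. Cilp, a matrix protein of cartilage, had 3.92, 1.96 and 2.39 CPM in WT and 0.581, 0.736 and 0.388 CPM in Trex1-/- (log2 fold change -2.26 ± 0.36, adjusted p = 0.0874). Pth1r, the receptor of parathyroid hormone, had 95.7, 67.4 and 78.8 CPM in WT and 50.5, 48.7 and 53.9 CPM in Trex1-/- (-0.66 ± 0.13, adjusted p = 0.0958). C1qtnf2, a secreted relative of adiponectin, lay at -0.86 ± 0.17, the actin-binding Cotl1 at -0.71 ± 0.13 and Lrrc27 at -0.91 ± 0.18. None of these 5 genes overlapped between the groups. After the length and GC correction C1qtnf2 was at -0.56 and Cotl1 at -0.40. Among genes of other lists, the antioxidant enzyme gene Gpx1 (-0.83 ± 0.18) and Ung, a DNA glycosylase that removes uracil (-0.96 ± 0.23), lay lower, and Atm, the kinase of the DNA double-strand break response, lay higher (1.51 ± 0.46), with 7.9, 38.1 and 20.4 CPM in WT and 50.9, 88.8 and 48.9 CPM in Trex1-/-. The correction gave -0.49 for Gpx1, -1.06 for Ung and 1.28 for Atm.

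Some genes differed more between libraries of 1 genotype than between genotypes. In Trex1-/- the widest were inflammatory genes that were by far the highest in replicate 2. Nos2, the inducible nitric oxide synthase, had 0.598 to 1.56 CPM in WT and 0.313, 158 and 2.33 CPM in Trex1-/-. Mmp3, a matrix protease, had 188 to 372 CPM in WT and 12.3, 2046 and 160 CPM in Trex1-/-, so that replicates 1 and 3 lay below WT. The cytokine gene Il6 had 3.49 to 5.59 CPM in WT and 1.25, 121 and 5.71 CPM in Trex1-/-. For the chemokine genes Cxcl10 and Cxcl9 replicate 1 was within the WT range, at 29.9 and 1.39 CPM, against 1690 and 146 CPM in replicate 2. Replicate 3, at 121 and 7.93 CPM, lay above the highest WT library, at 47.6 and 5.71 CPM. Over the list of 34 cytokines and chemokines 3 genes lay higher and 1 lower without overlap, and the median log2 fold change of 1.43 became -0.21 without Trex1-/- replicate 2. The smallest adjusted p of the list was that of Tnfsf10, the death ligand TRAIL, with 0.0577, 0.0612 and 0 CPM in WT and 0.626, 3.89 and 0.998 CPM in Trex1-/- (log2 fold change 5.34 ± 0.97, adjusted p = 0.092). It lay apart in all libraries, at a low level. WT was near 0, so the size of this fold change is uncertain, and DESeq2 gave the gene no adjusted p. Cxcl5, abundant in all libraries, had 234 to 253 CPM in WT and 228, 1733 and 422 CPM in Trex1-/-.

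Several of the genes that varied most among WT libraries stood apart in WT replicate 1. The acute-phase gene Hp had 208, 39.3 and 65.7 CPM in WT and 41.2, 316 and 60.8 CPM in Trex1-/-, and Lcn2, an iron-scavenging defence protein, had 75.2, 14.4 and 34 CPM against 28.6, 415 and 58.7 CPM. Both were high in WT replicate 1 and Trex1-/- replicate 2. Irs1, an adaptor of the insulin receptor, was low in WT replicate 1, at 6.8 CPM against 42.1 and 26 CPM, and varied from 24.6 to 83.2 CPM in Trex1-/-. Scube1 had the same form (5.54, 24.9 and 31.3 CPM in WT). Sumo2, whose protein modifies other proteins, split without regard to genotype, at 79.5, 12 and 72.5 CPM in WT and 9.92, 64.2 and 11.1 CPM in Trex1-/-. The adipocyte genes Adipoq and Cfd had 4.56 CPM and 5.83 CPM in WT replicate 1, against at most 0.105 CPM in the other 5 libraries.

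Hypoxia and glycolysis genes had 0 of 33 members without overlap at a median of 0.02, and endothelial markers 0 of 11. Lysosome and autophagy genes had 3 of 32 higher and 1 lower, NRF2 targets 1 of 30 higher and 4 lower, and matrix glycoproteins and proteoglycans 6 of 40 higher and 4 lower. The median of the matrix glycoproteins and proteoglycans was 0.20, and 0.03 after the correction. None of these counts is evidence that the genes do not differ, since 3 libraries a side and their spread limit what could be seen.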

How the data were processed

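RNA-seq libraries were counted by the authors. The deposited table holds raw read counts per gene, and per the submitters' processing notes the tools included fastp, HISAT2 and featureCounts with build GRCm39, without versions or strand setting in the sources used here. Lines with no gene name (1654 of 55578, 0.0804% to 0.13% of reads in these 6 libraries) were left out.

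The filter of edgeR, set to a minimum count of 10, was applied over all 11 libraries and kept 16990 genes. A gene that passed can therefore be near 0 in several of the libraries compared, as Adipoq was. The genes kept were fitted with edgeR 4.0.16 in R 4.3.3 (TMM, robust quasi-likelihood test, 11 libraries sharing 1 estimate of spread, Benjamini-Hochberg adjustment over all genes). CPM use TMM library sizes. The SE is the log2 fold change divided by the root of F. DESeq2 1.42.0, limma 3.58.1 and other settings were alternatives. Counts carry no molecular identifiers. Exonic length, GC and overlaps came from GRCm38, by gene name.

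The members and lists were chosen with earlier results of these data known. Genes named were the markers, those of largest difference, smallest p, highest abundance or widest spread, and the leading members of each list.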

Additional observations from a re-analysis of the deposited data

How the results depend on the processing

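The count of 0 genes called by edgeR was also 0 with DESeq2's size factors, upper-quartile scaling, no robust estimation, 6 libraries only, a replicate block and the length and GC correction. It was 261 with no filter, 846 with DESeq2, 1 with limma-voom and 380 with embryo sex as a term, and 0 to 2269 when 1 library was left out. With 1 library left out, genes without overlap numbered 3782 to 7754, in part because fewer libraries overlap less, and genes at an unadjusted p under 0.05 numbered 1929 to 5333, against 2281 with 6 libraries only and 3862 in the reported fit.

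List medians with 1 library left out ran from 1.127 to 2.333 for interferon-stimulated genes, 0.849 to 2.031 for MHC class I, -0.208 to 1.915 for cytokines, -0.151 to 0.245 for skeletal muscle, 0.098 to 0.329 for TGF-beta and BMP, 0.158 to 0.414 for positional factors, -0.253 to -0.098 for ATF4 and ER stress, -0.473 to -0.254 for oxidative phosphorylation, 0.146 to 0.497 for ion channels and -0.893 to -0.568 for histones. With the sex term the medians were 0.154 for mesothelial, -0.855 for smooth muscle, 0.114 for ion channel and -0.955 for histone genes. Skeletal muscle was at -0.097 with 6 libraries, and histones were at -0.438 after the length and GC correction. The cause was not tested.

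Single genes that turned direction lay between -7.802 and 1.806 (Adipoq), -5.948 and 3.081 (Cfd), -1.027 and 1.414 (Hp), -0.451 and 3.762 (Il6) and -1.578 and 2.103 (Mmp3) in log2 fold change with 1 library left out, and Mmp3 was at -0.618 in limma-voom.

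Of 120 genes named, DESeq2 called 86, the fit with a sex term 53 and the fit with no filter 47, and 0 were called under the replicate block, the length and GC correction or the other scalings. Every one of these calls kept the direction of the reported value. DESeq2 gave no adjusted p for Ccl5, Nos2, Tnfsf10 and H1f5, which are among the genes it did not call.

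Replicate numbers did not pair the libraries. Deviations of same-numbered libraries correlated at -0.209, -0.114 and 0.054, and the replicate block gave 0 calls and 3558 genes at an unadjusted p under 0.05. Counting 3 libraries a side limits what can be called.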
